A study of Homo sapiens with 12 samples.

Results

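The genes described here are 10 factors that handle DNA methylation and histones when chromatin is copied: UHRF1, DNMT1, HELLS, EZH2, CBX5, ATAD2, CHAF1A, CHAF1B, NASP and ASF1B. They were chosen by symbol, with earlier results of these data known, and matched through their Ensembl identifiers. All 10 were found among the 20595 genes of the count table. RNA was sequenced from 2 human lung adenocarcinoma cell lines, A549 and H1792, both with amplified MDM2. The sample labels give RPMI for both lines, while the study's methods give DMEM for A549, so the lines may also have differed in medium. A549 carries wild type p53 and H1792 carries mutant p53. Each line received DMSO, the solvent, or 1 μM RG7112 for 48 h, with 3 replicates in each of the 4 groups. RG7112 is a small molecule of the nutlin family that blocks the binding of p53 by MDM2, the ubiquitin ligase that marks p53 for degradation. The column names of the count table give the dose as 0.1 μM, so the dose rests on the sample labels. Nothing states that the replicates were separate cultures, so p-values measure the spread between these samples, which may be technical. Each p53 status is represented by 1 cell line, so p53 status and every other difference between the lines cannot be told apart.

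When a replication fork passes, methylated CpG sites become hemimethylated and the old nucleosomes are shared between the daughter strands. UHRF1 reads hemimethylated CpG and brings in DNMT1, the maintenance DNA methyltransferase, while the remodeler HELLS opens nucleosomal DNA to methylation. CAF-1, whose larger subunits are CHAF1A and CHAF1B, deposits new histones H3 and H4 at the fork. ASF1B passes H3-H4 dimers to CAF-1, and NASP keeps a soluble reserve of these histones. EZH2 is the catalytic subunit of Polycomb repressive complex 2 and methylates lysine 27 of histone H3. CBX5 encodes HP1α, which binds methylated lysine 9 of histone H3 in heterochromatin. ATAD2 is an AAA+ ATPase with a bromodomain that binds acetylated histone H4 on newly replicated chromatin. Many genes of this kind are transcribed mainly around S phase, and E2F transcription factors are known regulators of several.

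RefSeq promoter windows, from 250 bases before to 50 bases after an annotated start on GRCh38.p14, were matched for 9 of the 10 genes. ATAD2 had no entry. The windows were searched on both strands for the E2F words TTTCCCGC, TTTCGCGC, TTTGCCGC and TTTGGCGC, for the CHR words TTTGAA and TTCGAA, known from promoters of late cell cycle genes, and for CCAAT. An E2F word was present in 4 of the 9 genes, UHRF1, DNMT1, EZH2 and HELLS, against 3.99% of all 27305 genes with a window. CHR words were found in 1 of 9, against 19.5% of all genes, and CCAAT in 7 of 9, against 39.7%. No E2F match in these genes overlapped a CCAAT or CHR match. A match is a run of letters and not a measured binding site. The stretches below show the E2F words of the 4 genes that hold one, and the single CHR word, which lies in ASF1B. The capitals mark the matched words, and each stretch is written 5′ to 3′ on the strand of its gene.

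HELLS, chr10:94545697-94545787, plus strand, before the start, with 2 E2F words of which the first is reversed: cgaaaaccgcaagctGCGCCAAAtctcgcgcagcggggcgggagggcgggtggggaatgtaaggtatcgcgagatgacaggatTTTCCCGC
UHRF1, chr19:4909472-4909500, plus strand, before one annotated start, word reversed: aaatgccgagttttcGCGGGAAAaaaatc
UHRF1, chr19:4909969-4910006, plus strand, before another annotated start: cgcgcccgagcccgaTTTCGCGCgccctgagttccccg
DNMT1, chr19:10194938-10194965, minus strand, across the start, word reversed: atcggtttccGCGCGAAAagccggggcg
EZH2, chr7:148884273-148884300, minus strand, across the start: ggctgccgcgTTTGGCGCtcggtccggt
ASF1B, chr19:14136601-14136652, minus strand, before the start, with a reversed CCAAT and a CHR word: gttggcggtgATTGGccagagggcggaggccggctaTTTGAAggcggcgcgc

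The E2F words of HELLS, UHRF1, DNMT1 and EZH2 all lay between positions -160 and 9, where 1 is the annotated start. The EZH2 word itself lay after the start, at 2 to 9, and only the printed stretch around it crosses the start. The window of the other annotated start of EZH2 held no E2F word. In CHAF1A, CBX5 and NASP these windows held CCAAT but neither an E2F nor a CHR word, and in CHAF1B they held none of the 3.

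**Figure D1:**
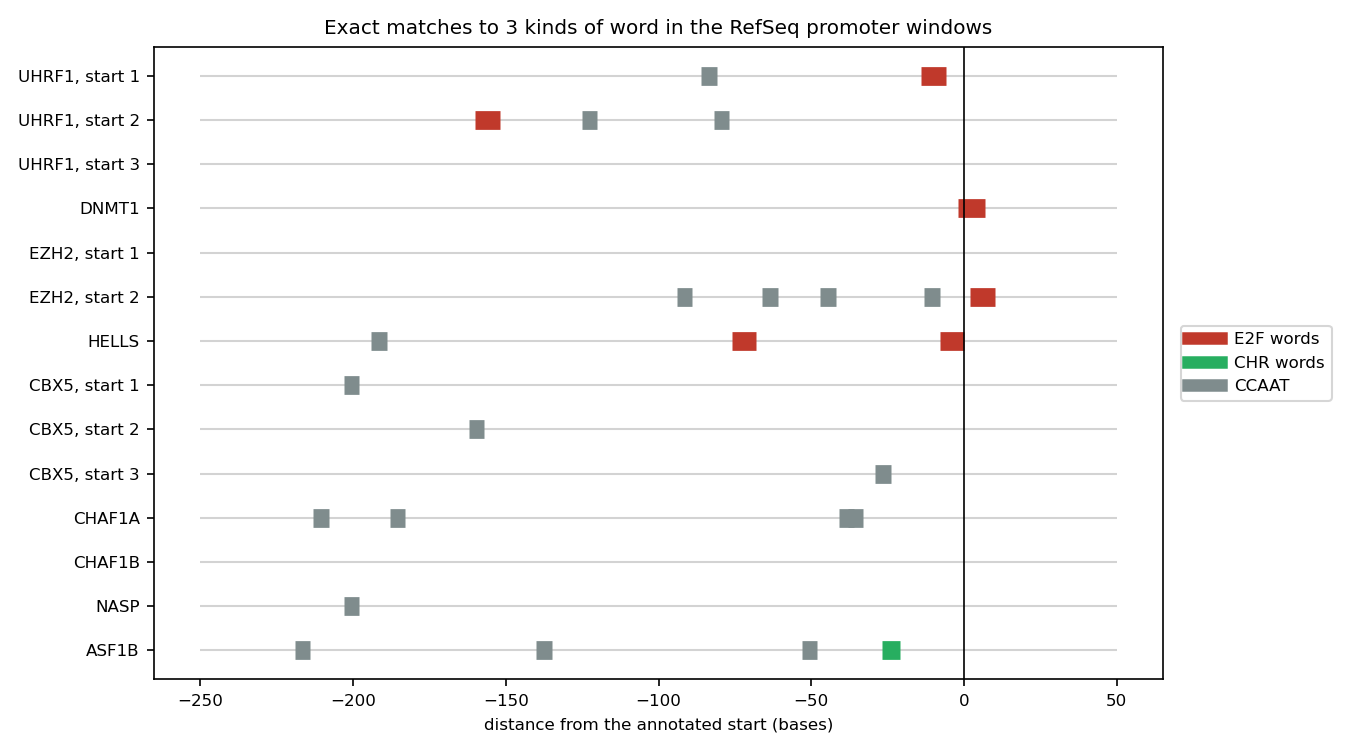
Positions of exact matches in the RefSeq promoter windows of 9 genes, with the distance from the annotated start in bases on the horizontal axis and 1 row for each annotated start. Red boxes are E2F words, found in 4 of 9 genes, the green box is the CHR word of ASF1B, and grey boxes are CCAAT, found in 7 of 9.

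The deposited estimated counts summed to 2011916 to 6218825 per sample. Levels are given as CPM, counts scaled to a common library size, with TMM factors set over all 12 samples, and 3 counts correspond to 0.463 to 1.43 CPM in the different samples. MDM2, a p53 target and the protein that RG7112 binds, measured 3.11, 9.53 and 12.9 CPM in the A549 DMSO samples and 72.6, 58.4 and 75.8 CPM in the A549 RG7112 samples (log2 fold change 2.99, SE 0.453, edgeR quasi-likelihood test, adjusted p = 0.0102), and its log2 fold change in H1792 was -0.05 (adjusted p = 0.928). CDKN1A, the p53 target that encodes the cyclin-dependent kinase inhibitor p21, rose in A549 by 3.58 on the log2 scale (adjusted p = 0.0252), with 202, 189 and 939 CPM in the RG7112 samples, the third of which stood apart. Of 7 epithelial markers, all had more than 3 counts in some sample of each A549 group, with summed levels of 14446 to 18922 CPM in DMSO and 17066 to 24009 CPM after RG7112. In H1792 they summed to 1818 to 2185 CPM in DMSO and 1070 to 1338 CPM after RG7112, without overlap. Of the 6 tested in each line, 1 was called higher in A549, KRT19, against 3.18% of all genes tested. In H1792 1 was called lower, KRT18, against 4.34%. Both are keratins of simple epithelia, named after their values were seen, and the part of these changes in the results was not tested. CDH1, the epithelial cadherin, had at most 4 counts in any H1792 sample. EPCAM, another of the 7, went against the sum in H1792, from 3 to 11 counts in DMSO to 16 to 35 counts after RG7112. In A549 it had 1 to 4 counts in DMSO and 0 to 9 counts after RG7112. Of 5 fibroblast markers, COL1A1 and COL1A2, the chains of type I collagen, reached 188 to 295 and 894 to 1132 CPM in H1792. DCN had at most 3 counts and LUM at most 1. PDGFRB went from 0 to 4 counts in H1792 DMSO samples to 16 to 27 counts after RG7112. It was the 1 of 3 tested fibroblast markers called higher in H1792, against 10.3% of all genes tested. The 2 collagen genes were not called there and had lower means after RG7112.

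Per kilobase of the longest annotated transcript, NASP had the highest mean of the 10 genes in every group and CHAF1B the lowest. The samples of CHAF1B overlapped those of the next gene, ASF1B, in A549 after RG7112 and in H1792 DMSO. In A549 DMSO samples NASP averaged 44.7 ± 5.80 (SD, n = 3) CPM per kilobase, followed by UHRF1 at 38.5 ± 0.358, DNMT1 at 23.5 ± 3.00 and EZH2 at 12.7 ± 2.25. The samples of these 4 genes did not overlap between neighbours in the order. CHAF1A, ATAD2, HELLS, ASF1B and CBX5 followed between 5.05 and 0.797 CPM per kilobase, and each of them but CBX5 overlapped the next in this order. The order depends on the length used. CBX5, with a transcript of 11528 bases, averaged 9.19 CPM, and ASF1B, with 2059 bases, 4.55 CPM. The H1792 DMSO samples had the same first 5 genes in order, with NASP at 115 ± 7.17 CPM per kilobase and with UHRF1 and DNMT1 overlapping each other. After RG7112 DNMT1 stood above UHRF1 in A549, at 8.79 ± 3.18 against 5.14 ± 0.778 CPM per kilobase, with overlapping samples.

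**Figure D2:**
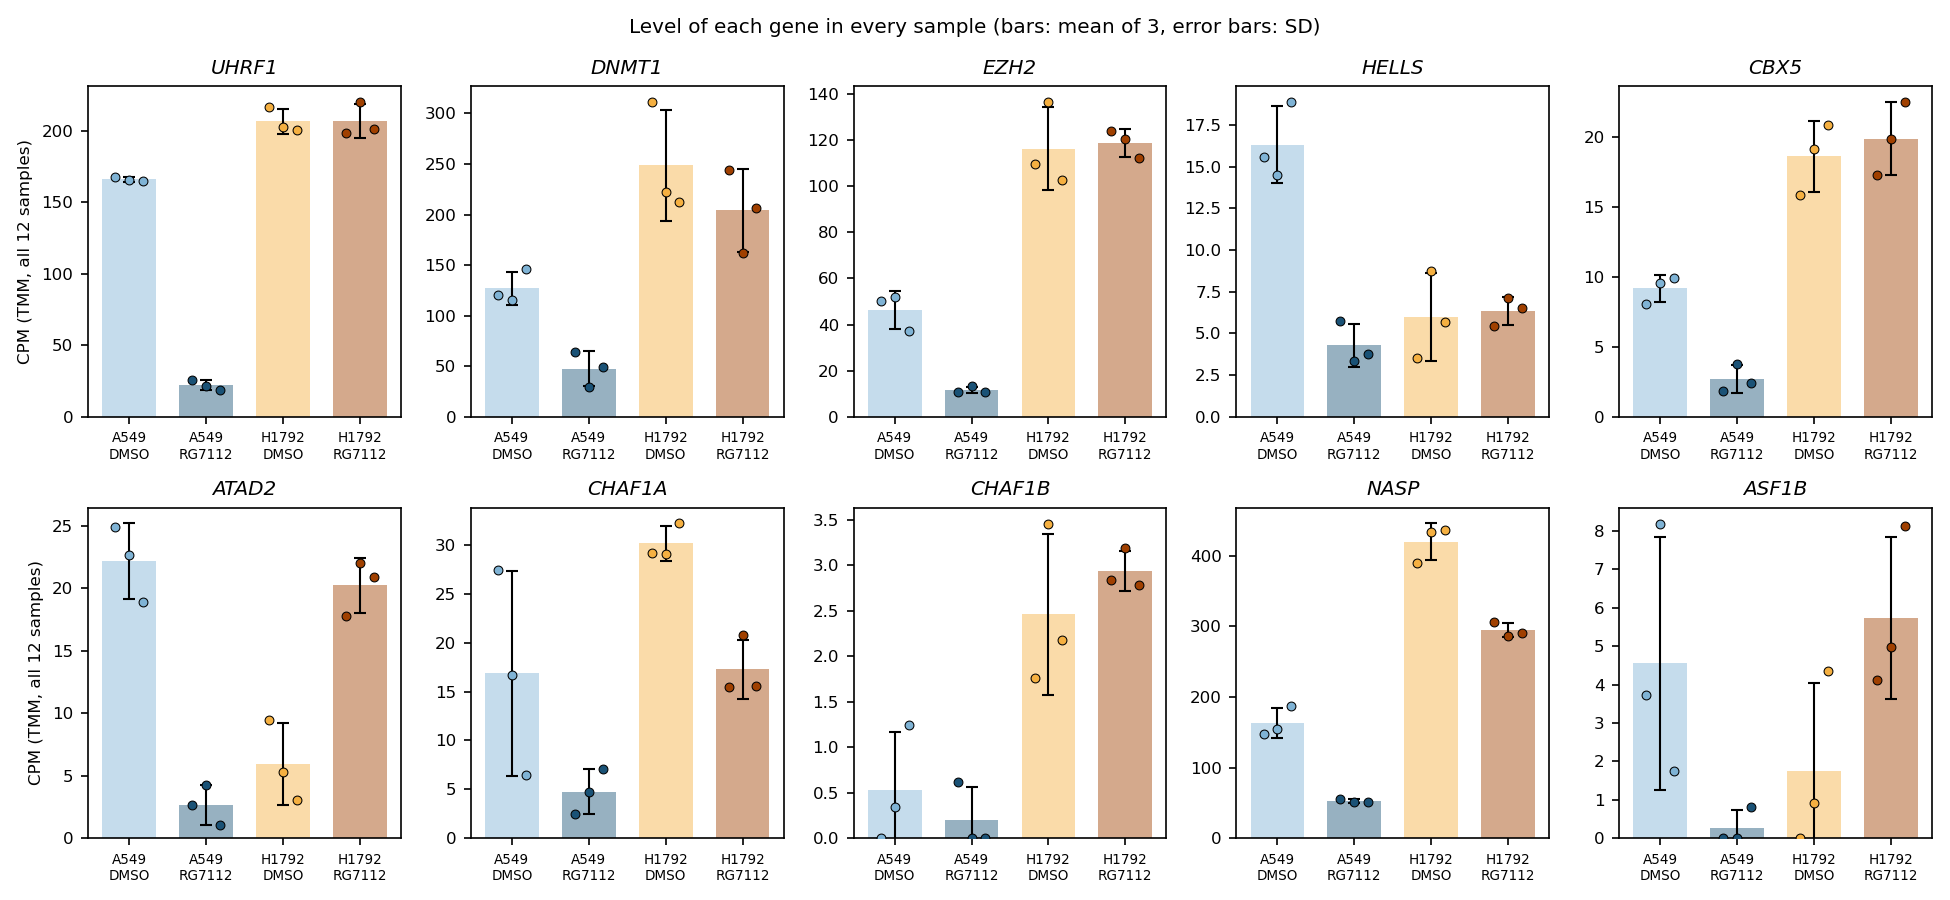
Level of each of the 10 genes in all 12 samples, in CPM scaled by TMM on a linear axis that starts at 0 and differs between panels. Points are samples, bars are means of 3 and error bars are SDs. In A549 the RG7112 samples lie below the DMSO samples in 8 panels, with CHAF1A and CHAF1B as the exceptions, and in H1792 the ATAD2 samples lie higher after RG7112.

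In A549 the maintenance methylation factors UHRF1, DNMT1 and HELLS were lower after RG7112, as were EZH2, CBX5, ATAD2 and NASP. Of the 8 genes with enough counts to be tested, 7 fell, at an adjusted p under 0.05 and a log2 fold change below -1, against 3.01% of the 10739 genes tested. The genes were chosen with earlier results of these data known. The shares over all genes, here and below, are therefore a description and not an independent expectation. None of the 8 rose by the edgeR test, against 3.18% of all genes; at an unadjusted p under 0.05, 8 were lower and 0 higher, and DESeq2 and limma-trend also called 7 lower and 0 higher. The median log2 fold change of the 8 was -1.86, beside -0.01 over all genes tested. The test asks whether treated and control samples differed by more than replicates do. These are bulk samples, so fewer cells in the phase that transcribes a gene and less RNA per cell cannot be told apart.

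UHRF1 (chr19:4903080-4962154, plus strand, GRCh38) measured 168, 165 and 165 CPM in DMSO samples and 25.6, 21.9 and 19.0 CPM in RG7112 samples. The DMSO samples were nearly equal, and every RG7112 sample was far below them. The fall was 7.44-fold (log2 fold change -2.90, SE 0.170, edgeR adjusted p = 0.000326), and the log2 value stayed between -3.03 and -2.78 when any 1 sample was left out. DNMT1 (chr19:10133345-10231286, minus strand), which UHRF1 brings to hemimethylated DNA, measured 120, 116 and 146 CPM in DMSO and 63.6, 29.5 and 49.6 CPM after RG7112. The groups did not overlap, but the RG7112 samples spread over a wider range relative to their mean. DNMT1 fell 2.64-fold (log2 fold change -1.40, SE 0.279, adjusted p = 0.0259). Its annotated span overlaps S1PR2 on the same strand. The call for DNMT1 was lost when DMSO replicate 1, 2 or 3 or RG7112 replicate 3 was left out (adjusted p up to 0.0815).

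HELLS (chr10:94501434-94613905, plus strand), the remodeler that aids methylation of nucleosomal DNA, measured 15.6, 14.5 and 18.9 CPM in DMSO and 5.72, 3.33 and 3.79 CPM after RG7112. Every treated sample was below every control. The log2 fold change was -1.89 (SE 0.325, adjusted p = 0.0153), and the call was lost without DMSO replicate 1, DMSO replicate 2 or RG7112 replicate 2 (adjusted p 0.0585 to 0.0613). Its span overlaps TBC1D12 on the same strand.

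EZH2 (chr7:148807383-148884321, minus strand) measured 50.1, 52.1 and 37.0 CPM in DMSO and 10.8, 13.3 and 10.8 CPM after RG7112. The treated samples were close together and well below the lowest control. EZH2 fell 4.0-fold (log2 fold change -2.0, SE 0.235, adjusted p = 0.00376). CBX5 (chr12:54230940-54280133, minus strand), the HP1α gene, was expressed at a lower level, with 8.10, 9.53 and 9.94 CPM in DMSO and 1.85, 3.80 and 2.44 CPM after RG7112. Its groups did not overlap, and the log2 fold change was -1.82 (SE 0.394, adjusted p = 0.0349). CBX5 passed only with all 6 samples: leaving out any 1 of them gave adjusted p from 0.0541 to 0.123, with log2 fold changes of -2.10 to -1.58. ATAD2 had 24.9, 22.6 and 18.9 CPM in DMSO and 2.63, 4.28 and 1.08 CPM after RG7112, which is near the floor of 3 counts in the lowest sample. It had the largest fitted change among the 8 tested genes in A549, 8.63-fold (log2 fold change -3.11, SE 0.458, adjusted p = 0.00869).

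Among the histone chaperones, NASP (chr1:45583846-45618904, plus strand) measured 148, 155 and 188 CPM in DMSO and 55.6, 51.8 and 51.2 CPM after RG7112. The treated samples were nearly equal, and the log2 fold change was -1.63 (SE 0.153, adjusted p = 0.00179). CHAF1A (chr19:4402662-4445018, plus strand) had 27.4, 16.7 and 6.46 CPM in DMSO and 2.47, 4.75 and 7.04 CPM after RG7112. DMSO replicate 3 lay below RG7112 replicate 3, so the groups overlapped, and the log2 fold change of -1.84 (SE 0.618) did not pass (adjusted p = 0.123). Without replicate 3 of both treatments CHAF1A was called (log2 fold change -2.70, adjusted p = 0.0315), while DNMT1, HELLS and CBX5 were not (adjusted p = 0.0889, 0.0555 and 0.0984). CHAF1A overlaps UBXN6 on the opposite strand, and the strand setting of the counting is not given in the sources used here.

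ASF1B (chr19:14119509-14136956, minus strand) and CHAF1B (chr21:36385378-36419015, plus strand) had too few counts in A549 for the test. ASF1B had 12, 48 and 7 counts in DMSO and 0, 0 and 3 counts after RG7112. Its 3 treated samples were all at or below the floor of 3 counts per library. The DMSO mean was 5.05-fold the mean floor in CPM, but it rests largely on replicate 2, at 8.17 CPM beside 3.74 and 1.74. CHAF1B had 0, 2 and 5 counts in DMSO and 4, 0 and 0 counts after RG7112, too few to show a difference at this depth. Over the 8 tested genes, 7 had every RG7112 sample below every DMSO sample, which held for 16.3% of all genes tested in A549.

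Genes used to follow proliferation were also lower in A549 after RG7112. Of 6 such genes 4 were called lower by edgeR, against 3.01% of all genes tested. DESeq2 called 5 and limma-trend 4, and all 6 had a negative edgeR log2 fold change. The summed level of the 6 was 842 to 1133 CPM in DMSO samples and 70.0 to 85.5 CPM after RG7112. MKI67, which encodes the Ki-67 protein of cycling cells, averaged 418 ± 85.9 CPM in DMSO and 20.5 ± 2.13 CPM after RG7112 (n = 3 each, log2 fold change -4.35, SE 0.211, edgeR adjusted p = 0.000283). PCNA, the sliding clamp of the replication fork, averaged 12.5 ± 0.574 and 8.54 ± 1.73 CPM and was not called (log2 fold change -0.53, adjusted p = 0.306). The part of proliferation in the results above was not tested. Of 5 leukocyte markers only CD68 had more than 3 counts in A549, at 10.7 to 34.9 CPM in DMSO and 44.2 to 104 CPM after RG7112, and CD3E and LYZ had 0 counts in all A549 samples. The leukocyte antigen gene PTPRC had at most 1 count.

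**Figure D3:**
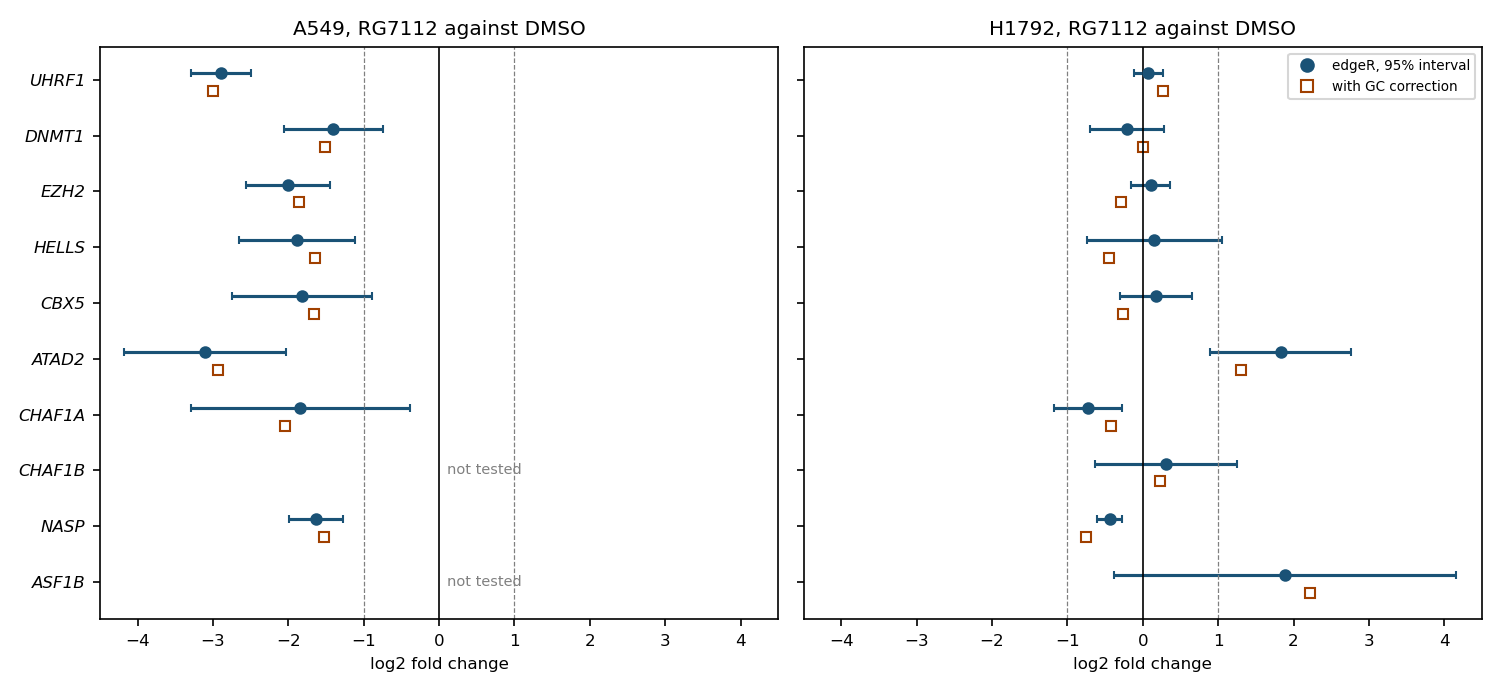
Log2 fold change of RG7112 against DMSO for the 10 genes in A549 (left) and H1792 (right). Filled points are edgeR estimates with 95% confidence intervals, open squares the estimates after a correction for GC content, and dashed lines the fold threshold of 1 on the log2 scale. In A549 all 8 tested genes lie below -1, and in H1792 only ATAD2 and ASF1B lie above 1, ASF1B with an interval that includes 0.

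In H1792 most of the 10 genes showed no call, and ATAD2 rose. The edgeR test called 1 of 10 higher, against 10.3% of the 9914 genes tested, and 0 lower, against 4.34%. Both counts are near the shares over all genes. At an unadjusted p under 0.05, 2 genes were lower and 1 was higher, and DESeq2 and limma-trend also called 0 lower and 1 higher. The median log2 fold change of the 10 was 0.13, beside 0.01 over all genes tested. UHRF1 measured 217, 203 and 200 CPM in DMSO and 198, 220 and 201 CPM after RG7112. The 2 groups interleaved, with a log2 fold change of 0.07 and a 95% interval of -0.12 to 0.26. EZH2 had 110, 137 and 103 CPM in DMSO and 124, 120 and 112 CPM after RG7112, again overlapping (log2 fold change 0.10, interval -0.16 to 0.36). DNMT1 varied more between samples, with 312, 222 and 212 CPM in DMSO and 244, 162 and 207 CPM after RG7112, and its interval was wider (-0.70 to 0.28). CBX5, HELLS and CHAF1B had log2 fold changes of 0.17, 0.15 and 0.30 with intervals of -0.30 to 0.65, -0.75 to 1.05 and -0.64 to 1.25, so changes within these bounds were not excluded.

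ATAD2 went from 9.49, 5.30 and 3.05 CPM in DMSO to 17.8, 22.0 and 20.9 CPM after RG7112 in H1792. Every treated sample was above every control, as for 24.8% of the genes tested there. ATAD2 rose 3.55-fold (log2 fold change 1.83, SE 0.390, edgeR adjusted p = 0.0142). The call was lost without DMSO replicate 2 (adjusted p = 0.0548) or RG7112 replicate 2 (adjusted p = 0.0526), and with a correction for GC content the log2 fold change was 1.30 (adjusted p = 0.0390). NASP had 390, 434 and 436 CPM in DMSO and 306, 287 and 291 CPM after RG7112. CHAF1A had 29.2, 29 and 32.2 CPM in DMSO and 15.5, 20.8 and 15.6 CPM after RG7112. For both genes all treated samples lay below all controls, which held for 28.5% of the genes tested in H1792. Their log2 fold changes passed the p threshold but not the fold threshold: NASP at -0.44 (SE 0.0695, adjusted p = 0.00603) and CHAF1A at -0.72 (SE 0.188, adjusted p = 0.0265). ASF1B had 0, 4 and 10 counts in DMSO and 16, 28 and 35 counts after RG7112. The treated samples exceeded the controls in counts, but in CPM 4.12 lay below 4.35, and the log2 fold change of 1.89 was not called (SE 0.949, adjusted p = 0.168). Without DMSO replicate 3 ASF1B was called (log2 fold change 3.46, adjusted p = 0.0460). In H1792 the 6 proliferation genes summed to 782 to 896 CPM in DMSO and 995 to 1122 CPM after RG7112, and MKI67 averaged 350 ± 13.8 and 345 ± 52.2 CPM. Of the 6, 2 rose by edgeR, DESeq2 and limma-trend, and 1 did with the GC correction. By edgeR 10.3% of all genes tested in H1792 were called higher. The 2 were MCM2, a subunit of the replicative helicase (11.2 ± 9.77 to 107 ± 23.1 CPM, log2 fold change 3.42, edgeR adjusted p = 0.0251), and RRM2, a subunit of ribonucleotide reductase (102 ± 18.6 to 211 ± 5.0 CPM, log2 fold change 1.13, edgeR adjusted p = 0.00404), both named after their values were seen. Their part in the rise of ATAD2 was not tested.

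Whether the 2 lines differed in their response was tested as an interaction over all 12 samples, the A549 log2 fold change minus the H1792 log2 fold change, and called at an adjusted p under 0.05 whatever its size. Of the 10 genes 8 had a lower response in A549, against 11.4% of the 11666 genes tested, and 0 a higher one, against 10.4%. The 8 include ASF1B, which had too few counts for the test in A549 alone. It passed the count filter in the H1792 fit and over all 12 samples, where its counts after RG7112 came mostly from H1792. Its call is therefore given as a description and adds no support to the count of 8. No gene was higher at an unadjusted p under 0.05 either, and DESeq2 and limma-trend gave 8 lower and 0 higher. The difference was -2.89 for UHRF1 (SE 0.163, edgeR adjusted p = 2.02e-06) and -2.04 for EZH2 (SE 0.241, adjusted p = 0.000393). ATAD2, which fell in A549 and rose in H1792, differed by -4.87 (SE 0.627, adjusted p = 0.000722). NASP, which was lower after RG7112 in both lines, differed by -1.12 (SE 0.150, adjusted p = 0.000875), and CBX5 by -1.94 (SE 0.386, adjusted p = 0.00691), a call lost with the replicate block and GC correction together (-1.30, adjusted p = 0.0525). HELLS differed by -1.96 (SE 0.503, adjusted p = 0.0202), a call that was lost with the GC correction (-1.11, adjusted p = 0.148). DNMT1 was just inside the threshold at -1.11 (SE 0.360, adjusted p = 0.0486). Its call was lost in 9 of 12 fits that left out 1 sample, the exceptions being A549 RG7112 replicate 1, H1792 DMSO replicate 1 and H1792 RG7112 replicate 2, with adjusted p up to 0.106. ASF1B was called (adjusted p = 0.0313), with its treated A549 samples at the floor, so that the fitted size has no meaning as a fold. The ASF1B call was lost without A549 DMSO replicate 1 or 2, A549 RG7112 replicate 1 or 2, H1792 DMSO replicate 2, or H1792 RG7112 replicate 2 or 3 (adjusted p up to 0.0834). CHAF1A and CHAF1B did not pass, with differences of -1.05 (interval -2.51 to 0.41) and -1.06 (interval -3.98 to 1.87).

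Before treatment the lines differed in 4 of the 9 tested genes, in both directions. This comparison uses the same DMSO samples as the responses above. NASP and EZH2 were lower in A549 than in H1792, 2 genes where 14.8% of the 10330 genes tested were called lower. ATAD2 and HELLS were higher in A549, 2 genes where 20.6% were called higher. With 9 genes tested, both counts are close to these shares and are not read as a trait of the set. NASP averaged 164 ± 21.2 CPM in A549 and 420 ± 26.2 CPM in H1792 (n = 3 each, log2 difference -1.31, SE 0.110, edgeR adjusted p = 0.000157). EZH2 averaged 46.4 ± 8.19 and 116 ± 17.9 CPM (log2 difference -1.27, adjusted p = 0.00174). ATAD2 averaged 22.1 ± 3.05 CPM in A549 and 5.95 ± 3.27 CPM in H1792 (log2 difference 1.93, adjusted p = 0.00752). After RG7112 the means of ATAD2 were 2.66 ± 1.60 CPM in A549 and 20.2 ± 2.19 CPM in H1792, the opposite order. HELLS averaged 16.3 ± 2.30 and 5.98 ± 2.63 CPM (log2 difference 1.47, adjusted p = 0.0141). UHRF1, DNMT1 and CBX5 passed the p threshold but not the fold threshold, at -0.27, -0.92 and -0.97. DNMT1 passed both without A549 DMSO replicate 3 (-1.03), H1792 DMSO replicate 2 (-1.02) or H1792 DMSO replicate 3 (-1.04), and CBX5 without A549 DMSO replicate 3 (-1.01) or H1792 DMSO replicate 1 (-1.09). CHAF1A and ASF1B were not called, and CHAF1B was not tested.

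The close relatives of these genes were read beside them. UHRF2, DNMT3A and DNMT3B, EZH1, CBX1 and CBX3, ATAD2B and ASF1A are the paralogs of UHRF1, DNMT1 (as methyltransferases), EZH2, CBX5, ATAD2 and ASF1B. In A549 0 of the 7 tested paralogs were called by edgeR, DESeq2 or limma-trend, with 1, 1 and 2 lower at an unadjusted p under 0.05. Their log2 fold changes lay between -0.94 for CBX3 (adjusted p = 0.0721) and 0.19 for EZH1 (adjusted p = 0.570), with a median of -0.57. In H1792 0 of 8 were called by the 3 tools, with 2, 3 and 3 higher at an unadjusted p under 0.05, and with the GC correction 1 was called higher. By edgeR 1 of the 8 paralogs had a lower response in A549 than in H1792, beside 11.4% of all genes tested, and by DESeq2 and limma-trend 2 did. The edgeR call was DNMT3B, a de novo DNA methyltransferase (difference -1.58, SE 0.454, adjusted p = 0.0315). It averaged 26.0 ± 3.05 and 15.9 ± 6.06 CPM in A549, and 14.3 ± 4.10 and 26.1 ± 6.68 CPM in H1792, in DMSO and RG7112 respectively. Before treatment EZH1 and UHRF2 were higher in A549 (log2 differences 1.05 and 1.59, adjusted p = 0.00153 and 0.0408).

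The ratio of a gene to its paralog within a sample does not depend on the scaling between samples. It was taken on counts, not corrected for length, so only its change is read. EZH1, the alternative catalytic subunit of Polycomb repressive complex 2, measured 51.4, 55.7 and 54.7 CPM in A549 DMSO samples and 69.5, 53.2 and 60.7 CPM after RG7112. The EZH2 to EZH1 ratio was 0.976, 0.936 and 0.677 in DMSO and 0.156, 0.250 and 0.179 after RG7112. All treated ratios were below all control ratios (means 0.863 ± 0.162 and 0.195 ± 0.0492, two-sided exact permutation p = 0.1, the smallest that 3 samples against 3 allow). In H1792 the means were 4.31 ± 0.340 and 5.26 ± 1.45 (exact permutation p = 0.5). The ATAD2 to ATAD2B ratio averaged 11.8 ± 3.19 and 0.975 ± 0.267 in A549 and 3.02 ± 0.472 and 9.09 ± 2.30 in H1792, in DMSO and RG7112 respectively (exact permutation p = 0.1 in each line). ATAD2B had 2 to 15 counts per sample, so this ratio has a large counting error. The DNMT1 to DNMT3A ratio averaged 3.13 ± 0.0803 and 1.16 ± 0.524 in A549 (exact permutation p = 0.1), and 10.9 ± 4.74 and 9.01 ± 4.86 in H1792 (exact permutation p = 0.7). The ratio of UHRF1 to its partner DNMT1 was 1.39, 1.43 and 1.13 in A549 DMSO samples and 0.403, 0.742 and 0.383 after RG7112, with every treated sample below every control (exact permutation p = 0.1). In H1792 that ratio averaged 0.850 ± 0.135 and 1.05 ± 0.280 (exact permutation p = 0.4). The UHRF1 to UHRF2 ratio was lower after RG7112 in both lines, at 12.2 ± 4.6 and 2.41 ± 0.50 in A549 and 54.3 ± 41.9 and 22.6 ± 2.86 in H1792, with every treated sample below every control in each (exact permutation p = 0.1). The H1792 DMSO mean rests on replicate 1, at 103, beside 27.5 and 32.9. CBX5 to CBX3 averaged 0.343 ± 0.0935 and 0.187 ± 0.0565 in A549 (exact permutation p = 0.1) and 0.938 ± 0.376 and 0.873 ± 0.178 in H1792 (exact permutation p = 0.8). The CBX5 to CBX1 ratio (exact permutation p = 0.3 in A549 and 0.2 in H1792), ASF1B to ASF1A (p = 0.2 and 0.3) and NASP to CHAF1A (p = 0.9 and 0.2) had overlapping groups in both lines. In all, 9 ratios were computed in 2 lines, and no adjustment could bring any of them under 0.05.

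**Figure D4:**
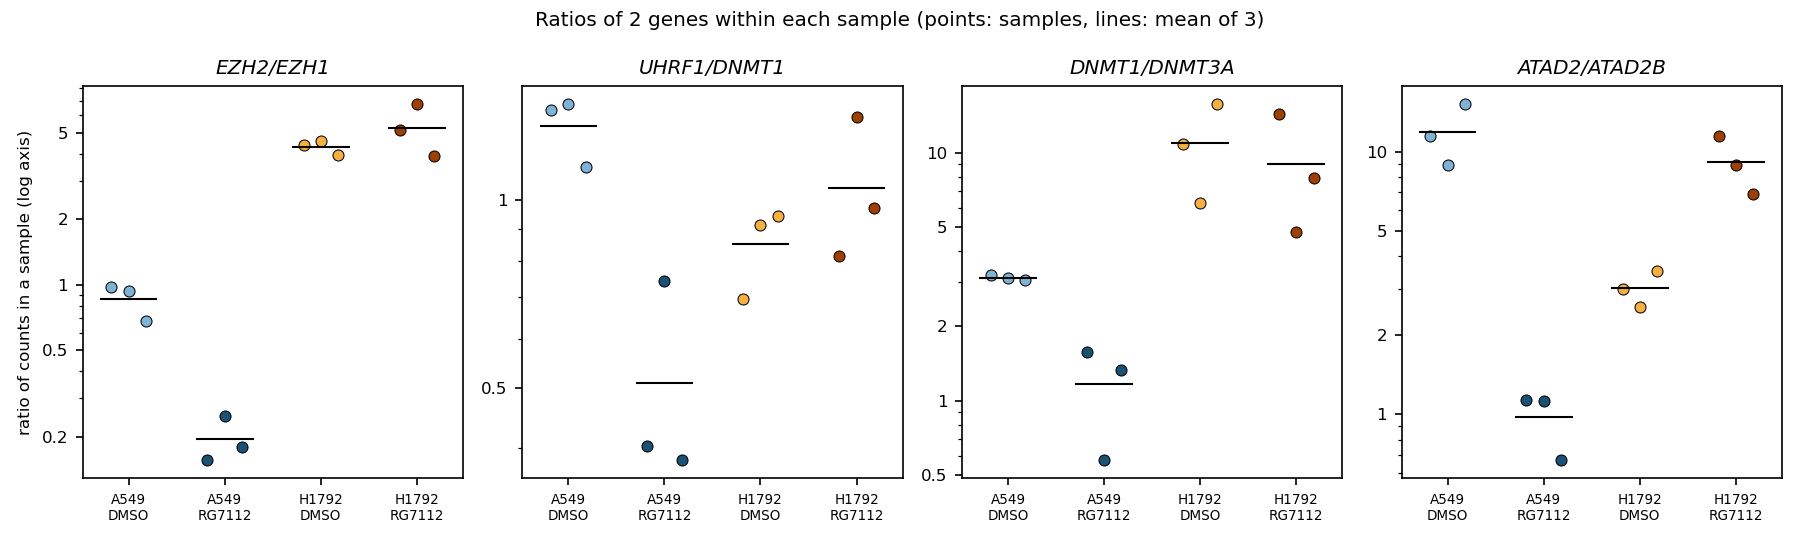
Ratio of the counts of 2 genes within each sample, on a logarithmic axis, for EZH2 to EZH1, UHRF1 to DNMT1, DNMT1 to DNMT3A and ATAD2 to ATAD2B. Points are samples and lines are means of 3. In A549 the RG7112 samples lie below the DMSO samples in all 4 panels, and in H1792 the ATAD2 to ATAD2B ratio lies higher after RG7112.

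Other genes of the same pathways held a few calls in A549, all of them lower, beside 3.01% lower and 3.18% higher over all genes tested. Of 13 tested genes that write, read or erase DNA methylation, 2 fell and 0 rose, with a median of -0.29. CDCA7, which activates the remodeler HELLS, averaged 58.2 ± 12.1 CPM in DMSO and 19.4 ± 5.55 CPM after RG7112 (n = 3 each, log2 fold change -1.59, edgeR adjusted p = 0.0195), and its relative CDCA7L fell by 1.82 on the log2 scale (adjusted p = 0.0496). Of 13 Polycomb genes 1 fell and 0 rose, with a median of -0.45. It was PHF19, an accessory subunit that helps recruit Polycomb repressive complex 2, from 154 ± 33.3 to 21.6 ± 0.663 CPM (log2 fold change -2.83, adjusted p = 0.000661). Of 17 histone chaperone genes 2 fell and 0 rose, with a median of -0.32: HJURP, the chaperone of the centromeric histone CENP-A (-2.78, adjusted p = 0.0182), and MMS22L, the partner of TONSL at replication forks (-1.81, adjusted p = 0.0353). Of 12 heterochromatin genes 0 were called by edgeR, DESeq2 or limma-trend, with 2 lower and 1 higher at an unadjusted p under 0.05 in each tool and a median of -0.14.

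In H1792 the same lists held calls in both directions, beside 4.34% lower and 10.3% higher over all genes tested there. CDCA7 rose, opposite to A549 (log2 fold change 1.09, adjusted p = 0.00529, difference of responses -2.61, adjusted p = 0.000724). CDCA7L fell in H1792 too (-1.35, adjusted p = 0.0376), as did MBD3, a subunit of the NuRD complex (-1.44, adjusted p = 0.00300). That made 2 lower and 1 higher of 13 DNA methylation genes. Of 12 Polycomb genes 2 rose, BMI1, a core subunit of Polycomb repressive complex 1 (1.66, adjusted p = 0.00404), and RBBP4, a histone-binding subunit shared with CAF-1 (1.03, adjusted p = 0.00567). KMT5A, the methyltransferase of lysine 20 of histone H4, rose by 1.41 on the log2 scale (adjusted p = 0.00758) as 1 of 13 heterochromatin genes, and TONSL, a reader of new histone H4, fell by 1.71 (adjusted p = 0.0266) as 1 of 17 histone chaperones. For the chaperones DESeq2 called 0 lower and 1 higher and limma-trend 1 lower and 1 higher. With the GC correction edgeR called 1 DNA methylation gene lower and 1 higher, and 1 Polycomb gene higher. The medians of the 4 lists in H1792 were between 0.11 and 0.23.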

How the data were processed

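Per the labels, poly-adenylated RNA was sequenced in 12 samples on an Illumina NextSeq500. The authors estimated transcript abundances with kallisto 0.45.0 on GRCh38, per the submitters' processing notes, and deposited expected counts (kallisto estimates summed per gene), which are whole numbers and not scaled between samples. The labels give paired reads of 38 bases and the study's methods another length. Symbols, positions, length and GC content came from GENCODE v29, which held 18011 of 20595 identifiers. Length and GC content are those of the longest transcript of each gene. The members and lists were chosen with earlier results of these data known. Besides the 10 genes, paralogs, MDM2, CDKN1A, MKI67 and PCNA, the text names up to 3 called genes with the smallest p from each related list and response. Marker genes are given by their levels. ZBTB24 and TET1, of the DNA methylation list, had no row in the table, and one symbol of the chaperone list was not matched.

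In R 4.3.3, edgeR 4.0.16 kept genes by filterByExpr (minimum count 10, minimum total 15), scaled by TMM and fitted a robust quasi-likelihood model per comparison. Calls needed a Benjamini-Hochberg adjusted p under 0.05 over all genes tested and an absolute log2 fold change over 1, except for the interaction, which had no fold threshold. Biological coefficients of variation came to 0.345 (A549) and 0.270 (H1792). Alternatives were DESeq2 1.42.0, limma-trend (limma 3.58.1, prior count 2), other scalings and filters, a loess GC correction (span 0.5), the replicate number as a block, and leaving out samples. Errors of levels and ratios are SDs of 3 samples, and ratios were tested by exact two-sided permutation. Floors of 3 counts and intervals of 95% cover the stated error only, and duplicate reads cannot be recognized. Replicates differed by 5.12 to 23.3 times counting noise (chi-square per degree of freedom). On simulated data for the A549 comparison, 148 of 200 genes changed by 2 on the log2 scale were recovered, with 6 false calls among 10379 genes. The changed genes were drawn only from those above a minimum mean count. The recovery therefore does not cover genes with few counts, such as ASF1B, CHAF1B and also CBX5, which was called in A549.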

Additional observations from a re-analysis of the deposited data

Results flagged for a closer look

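Differences between the responses of A549 and H1792 that passed the interaction test in edgeR (adjusted p under 0.05, all 12 samples) were marked for a closer look, and 8 of the 10 genes had one. The A549 log2 fold change minus the H1792 log2 fold change was -2.89 for UHRF1, -1.11 for DNMT1, -2.04 for EZH2, -1.96 for HELLS and -1.94 for CBX5. It was -4.87 for ATAD2, -1.12 for NASP and -5.79 for ASF1B, the last with its treated A549 samples at the floor of 3 counts. ASF1B had too few counts for the test in A549 alone, and its value has no meaning as a fold. ATAD2 was called in both lines, lower in A549 and higher in H1792.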

How the results depend on the processing

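Of the 10 genes, 7 were called lower in A549 and 1 higher in H1792. The A549 count was 4 with at least 10 counts in every sample, which leaves fewer genes tested, 4 at an adjusted p under 0.01, and 4 to 6 when 1 sample was left out. The H1792 count of higher genes was 0 with 10 counts in every sample, 0 at an adjusted p under 0.01, 0 with the replicate block and GC correction together, and 0 to 2 with 1 sample left out, while the count of lower genes went from 0 to 2 without the fold threshold. For the difference of responses the 8 lower genes became 4 with 10 counts in every sample and 5 at an adjusted p under 0.01. At baseline the 2 higher genes became 1 under those same settings and with the block and GC correction, and the 2 lower genes became 5 without the fold threshold and 2 to 4 with 1 sample left out. Fitting all 12 samples together added a call for CHAF1A in A549 (adjusted p = 0.0306).

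Signs turned only for values that were not called. In H1792 DNMT1 became 0.040 with library size only, 0.0018 with the GC correction and 0.00999 with block and GC correction. EZH2 became -0.28 and -0.27, HELLS -0.45 and -0.37, and CBX5 -0.27 and -0.26 under the same 2 corrections, and HELLS ranged from -0.11 (without DMSO replicate 1) to 0.52 with 1 sample left out. The difference for CHAF1B ranged from -4.38 to 0.18, the latter without A549 DMSO replicate 3. The cause was not tested. Scaling by library size only moved the median log2 fold change of all genes by 0.26 in H1792, -0.39 in the difference and 0.22 at baseline.

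Over all genes the A549 counts of 323 lower and 342 higher became 144 and 135 at an adjusted p under 0.01. With 1 sample left out they were 159 (without DMSO replicate 2) to 298 and 149 (without DMSO replicate 1) to 356, and also moved by over 1.5 times without RG7112 replicate 1 or 2. In H1792 the higher count was 615 to 1113, lowest without RG7112 replicate 2 and then replicate 3 (630), and in the difference the higher count was 689 (without A549 DMSO replicate 1) to 1470, with 709 to 750 also without A549 DMSO replicate 2, H1792 DMSO replicate 2 and H1792 RG7112 replicates 2 and 3. In H1792 430 and 1020 became 218 and 504 there, 249 and 1541 with library size only, and 1632 and 1752 without the fold threshold, and the higher count was 671 with the block and 646 with the GC correction. With both corrections H1792 gave 225 and 294. In the difference 1329 and 1210 became 2157 and 645 with library size only and 460 and 388 at an adjusted p under 0.01, and the lower count 811 with both corrections. At baseline 1534 and 2131 became 961 and 1165 with 10 counts in every sample, and the lower count 2399 without the fold threshold.

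In A549 the deviations of DMSO replicate 3 and RG7112 replicate 3 were correlated at 0.293, while replicate 3 against replicates 1 and 2 gave -0.232 to -0.140. Replicates 1 and 2 gave 0.145 and 0.0668 for the same number, beside 0.144 and 0.111 for different numbers. Deviations within a group of 3 samples balance out, so these A549 values depend on one another and amount to 1 contrast. By that contrast the A549 replicate 3 samples shared a deviation, and its source was not tested. In H1792 same-numbered samples gave -0.0386, -0.0182 and -0.00022, beside -0.0267 to 0.0392 for different numbers. With the replicate block 6 of the genes were called lower in A549, CBX5 being lost (adjusted p = 0.0527), 1 higher in H1792 and 7 lower in the difference, ASF1B being lost (adjusted p = 0.0516). Depth limits CHAF1B, ASF1B and ATAD2B, which had few counts in A549.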
